A study of Mus musculus with 8 samples.

Results

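The nuclei described here are those that the authors assigned to the cluster named Slc17a7+ neuron_2, as given in their deposited table of nuclei. They numbered 529 of 55672 annotated nuclei (0.950%), and all counts were taken from the RNA matrix of each nucleus's own batch. The study read nuclear RNA and open chromatin from the same nuclei (10x Multiome) in the striatum of 32 mice, 12 weeks old, of 8 inbred strains. The classical strains were 129S1/SvImJ, A/J, C57BL/6 (C57BL/6NJ in the deposited table and C57BL/6J in the design text), NOD/ShiLtJ and NZO/HlLtJ, and the wild-derived strains were WSB/EiJ, CAST/EiJ and PWK/PhJ. A batch held nuclei of 8 mice, 1 per strain, of which 4 were male and 4 female, and there were 4 batches, so a mouse is given here by its strain and batch. No mouse was treated, and no group carried an engineered allele.

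Excitatory neurons that load glutamate into vesicles with the transporter VGLUT1, the product of Slc17a7, are the projection neurons of the cerebral cortex, hippocampus, claustrum and amygdala. The striatum itself is built mainly of GABAergic projection neurons, and it lies directly beneath the deep cortical layers and beside the claustrum and endopiriform nucleus. Cortical projection neurons fall into classes by target: intratelencephalic (IT) cells project within the cortex and to the striatum, corticothalamic (CT) cells of layer 6 project to the thalamus, and each class has its own transcription factors and adhesion genes.

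The 4 batches gave 98, 192, 94 and 145 nuclei of the cluster, with 733703, 1575424, 281904 and 1193743 counted RNA molecules (unique molecular identifiers, UMIs). The nuclei were rich in RNA, with a median of 7277 UMIs and 3009 detected genes per nucleus, each the third highest of the 18 annotated clusters. Batch 3 stood apart with a median of 2896 UMIs, against 7180 to 8016 in the others. All 529 nuclei had been called singlets of the same strain from the RNA and from the chromatin reads. No barcode of the cluster occurred in more than 1 batch.

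The authors named the cluster by Slc17a7, so the levels of that gene describe the nuclei and are no test of the label. Slc17a7 was at 324, 218, 227 and 292 counts per 1000000 (CPM) in batches 1 to 4, a mean of 266 ± 51.3 CPM (SD, n = 4 batches, each a pool of 8 mice), and at 263 CPM over all its nuclei. The other Slc17a7+ cluster of the study, called the first Slc17a7+ cluster here (955 nuclei), had 254 CPM, and Drd1+ projection neurons, the study's most numerous cluster, had 4.26 CPM. Both Slc17a7+ clusters were thus far above the striatal neurons in this gene, and their 4 batches overlapped. At 2000 UMIs per nucleus, which left out 27 shallower nuclei, 37.8% of 502 nuclei had a Slc17a7 UMI (exact binomial 95% interval 33.6 to 42.3%, counting error only). That share was 40.1% in the first Slc17a7+ cluster and 0.976% in Drd1+ neurons, which should lack the gene. Unthinned, 405 of the 529 nuclei (76.6%) had a Slc17a7 UMI.

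The stretch before the transcription start is shown for 3 genes: Slc17a7, which names the cluster, and C1ql3 and Cck, which are described below as higher here than in any other cluster. Each is the 250 bases upstream of the RefSeq start (GRCm38.p6, the build of the deposited regions), written 5′ to 3′ on the strand of the gene. Slc17a7 is at chr7:45163671-45163920 on the plus strand, C1ql3 at chr2:13010865-13011114 and Cck at chr9:121495695-121495944, both on the minus strand. Capitals mark the 2 motifs searched on both strands: CAGATG, a form of the E-box that Neurod factors bind, and TGACG, the core of the cyclic AMP response element, which appears as CGTCA on the other strand.
Slc17a7: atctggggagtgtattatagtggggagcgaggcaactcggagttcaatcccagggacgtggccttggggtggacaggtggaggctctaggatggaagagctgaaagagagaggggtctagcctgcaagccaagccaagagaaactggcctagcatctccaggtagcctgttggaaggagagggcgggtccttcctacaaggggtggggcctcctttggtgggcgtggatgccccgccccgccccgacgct
C1ql3: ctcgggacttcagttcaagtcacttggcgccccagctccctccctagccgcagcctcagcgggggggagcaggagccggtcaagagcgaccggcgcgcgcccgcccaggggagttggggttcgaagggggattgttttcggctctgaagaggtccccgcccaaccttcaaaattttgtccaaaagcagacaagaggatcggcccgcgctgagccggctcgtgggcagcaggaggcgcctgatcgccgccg
Cck: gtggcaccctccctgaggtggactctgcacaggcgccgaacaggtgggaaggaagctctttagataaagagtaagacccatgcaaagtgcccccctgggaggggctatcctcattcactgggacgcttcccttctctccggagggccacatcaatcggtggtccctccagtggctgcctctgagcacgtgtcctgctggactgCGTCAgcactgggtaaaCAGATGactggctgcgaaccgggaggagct
In the Cck window CAGATG lay 30 to 25 bases before the start and CGTCA 47 to 43 bases before it, and the 2 matches did not overlap. The windows of Slc17a7 and C1ql3 held neither set of letters, nor did the 2 RefSeq windows, not printed, of Slc30a3, the gene with the highest ratio to the other clusters. Of 32817 such windows in RefSeq, 14.5% held CAGATG and 17.7% held TGACG, so a match is a description only. The deposited index of accessible regions, 291715 regions of 1000 bases called by the authors, covered all 250 bases for Slc17a7 and for C1ql3 and 121 of them for Cck. It covered 0 and 72 bases of the 2 windows of Slc30a3. A region touched 51.7% of all windows, and the index is shared by all nuclei, so it does not single out the cluster.

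Genes that mark excitatory neurons of the forebrain had their highest summed level here. The 10 genes of the excitatory list, all of them with UMIs, summed to 1644 CPM (1579 to 1696 CPM over the batches), the highest of the 18 clusters, against 1171 CPM in the first Slc17a7+ cluster. Of the 10, 5 were at their highest of the 18 clusters here. Neurod6, a transcription factor of cortical projection neurons, was at 68.7 CPM, and Camk2a, the calcium-dependent kinase of excitatory synapses, at 615 CPM. Neurod2 and Tbr1, which are also transcription factors of pyramidal neurons, were at 45.2 and 26.7 CPM, below the 58.2 and 42.8 CPM of the first Slc17a7+ cluster. Nrn1, which encodes the secreted protein neuritin, was at 106, 97.8, 121 and 137 CPM, above the 30.0, 31.3, 42.8 and 39.4 CPM of the first Slc17a7+ cluster with no overlap. VGLUT2 and VGLUT3, the transporters of Slc17a6 and Slc17a8, were close to absent, at 3.96 and 0.793 CPM. Slc17a6 had a UMI in 9 nuclei (1.70%, against 0.136% in Drd1+ neurons at a median of 6505 UMIs), 3 of which also had one of Slc17a7. The thalamus list, with Slc17a6 among its 6 members, summed to 8.19 CPM, and Gbx2 was at 0.

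Markers of other striatal cells were also found. The GABAergic list, which includes Gad1, Gad2 and Slc32a1, summed to 37.8 CPM (21.8 to 60.3 CPM over the batches), the lowest of the 18 clusters, and to 39.7 CPM in the first Slc17a7+ cluster. Of the 529 nuclei 86 (16.3%) had a UMI of Gad1, Gad2 or Slc32a1, and after thinning 2.19% had one of Gad2, against 2.24% in the first Slc17a7+ cluster and 27.5% in Drd1+ neurons. The 10 projection neuron genes, led by the phosphodiesterase Pde10a at 786 CPM, summed to 1055 and 1067 CPM in the 2 Slc17a7+ clusters. The oligodendrocyte list, mostly the myelin gene Mbp at 746 CPM, summed to 983 and 981 CPM, and the microglia and macrophage list to 46.5 and 47.1 CPM. The astrocyte list was lower here, at 279 CPM (216 to 327 CPM over the batches) against 796 CPM (551 to 869 CPM) in the first Slc17a7+ cluster, with no overlap. Of its 4 genes Slc1a2, a glutamate transporter, was lower in all batches, at 251 and 769 CPM. Oligodendrocyte precursor genes summed to 7.40 and 13.2 CPM and endothelial and mural genes to 7.13 and 10.6 CPM, with overlapping batches. What these transcripts contribute to other values was not tested.

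A small set of genes was found at a higher level here than in any other cluster. Of 6893 genes at 20 CPM or more in the cluster, 25 (0.363%) were at least 2-fold above the highest of the other 17 clusters. The clusters were made from these genes, so the levels describe the cluster and are no test of it. Slc30a3, the transporter ZnT3 that fills synaptic vesicles with zinc, was at 53.2, 53.3, 46.1 and 46.9 CPM in batches 1 to 4. The highest other cluster, the Nxph1+ interneurons, had 3.91 CPM, a 10.5-fold difference (1 CPM added to both). Slc26a4, the anion exchanger pendrin, was at 54.5, 58.4, 42.6 and 61.2 CPM, 10.1-fold above Nxph1+ interneurons. C1ql3, a secreted C1q-like protein that organises excitatory synapses, was at 206, 232, 436 and 311 CPM, a mean of 296 ± 103 CPM. Batch 3 was the highest of these, and over all batches the level was 267 CPM, 8.19-fold above the highest other cluster.

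Genes of several kinds made up the rest. Bdnf, the neurotrophin that supports corticostriatal targets, was at 57.2, 44.4, 49.7 and 67.9 CPM, 7.79-fold above the first Slc17a7+ cluster, which came next. Cck, the peptide cholecystokinin, was at 134, 160, 128 and 196 CPM, 4.52-fold above the next cluster, fibroblasts. Nptxr, a receptor of the pentraxins that gather AMPA receptors, was at 97.8 CPM, and Ntng2, which encodes the adhesion protein netrin-G2, was at 141 CPM. All 4 batches of each of these genes exceeded the pooled level of every other cluster. Rtn4r, the Nogo receptor, was at 105 CPM, and Bmp3, a bone morphogenetic protein, at 42.0 CPM. Rspo2, a secreted enhancer of Wnt signals, was at 154 CPM over all nuclei and at 169, 155, 56.8 and 166 CPM in batches 1 to 4, so in batch 3 it was below the 57.9 CPM of the first Slc17a7+ cluster. The nuclear receptor Pparg, known as the regulator of fat cell formation, was at 132 CPM, and the transcription factor Ovol2 at 30.1 CPM. Sorcs3, a sorting receptor, was at 635 CPM over all nuclei and at 305 CPM in batch 3, below the 607 to 837 CPM of the other batches. Syt17, a synaptotagmin, Unc5a, a netrin receptor, Cdh12, a cadherin, Ak5, an adenylate kinase, and the gene models Gm48530 and Gm11639 complete the 20 genes with the highest ratios, at 2.25-fold or more. All 4 batches were above the pooled level of every other cluster in 19 of the 20, Rspo2 being the exception. At least 2-fold above it were 19, 20, 15 and 19 of the 20 in batches 1 to 4. Bdnf, Gm48530, Gm11639, Rtn4r, Rspo2, Bmp3, Ovol2, Unc5a, Cdh12 and Ak5 had the first Slc17a7+ cluster as the next highest.

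The first Slc17a7+ cluster had a similar level of Slc17a7, and the 2 differed in many genes of cortical layers. Genes were compared at 50 CPM or more in either cluster and called where the ratio was at least 2-fold in each of the 4 batches. Of 3808 genes, 119 (3.12%) were higher here and 52 (1.37%) lower, as a description without a test. Listed genes were called in the same way at 20 CPM or more, where 177 of 7256 genes (2.44%) were higher and 79 (1.09%) lower. Layer 6 corticothalamic genes were low: 6 of 7 were lower, and the list summed to 624 CPM here and 5270 CPM in the first Slc17a7+ cluster. Foxp2, a forkhead transcription factor, was at 12.3, 26.0, 35.5 and 5.86 CPM here and at 777, 892, 910 and 851 CPM there. Hs3st4, a heparan sulfate sulfotransferase, was at 88.6, 162, 92.2 and 90.5 CPM here and at 2771, 2779, 2480 and 2383 CPM there. Neither gene's batches came near each other. Tle4, a corepressor, Syt6, a synaptotagmin, Rprm and Garnl3 were the other members that were lower, and Sulf1, a sulfatase, was at 276 and 228 CPM. Thinned to equal depth, 1.99% of nuclei here and 73.7% there had a Foxp2 UMI, and 12.5% and 97.9% had one of Hs3st4. Foxp2 was found in 81.6% of Drd1+ neurons in the same way, so it also marks striatal cells.

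**Figure D1:**
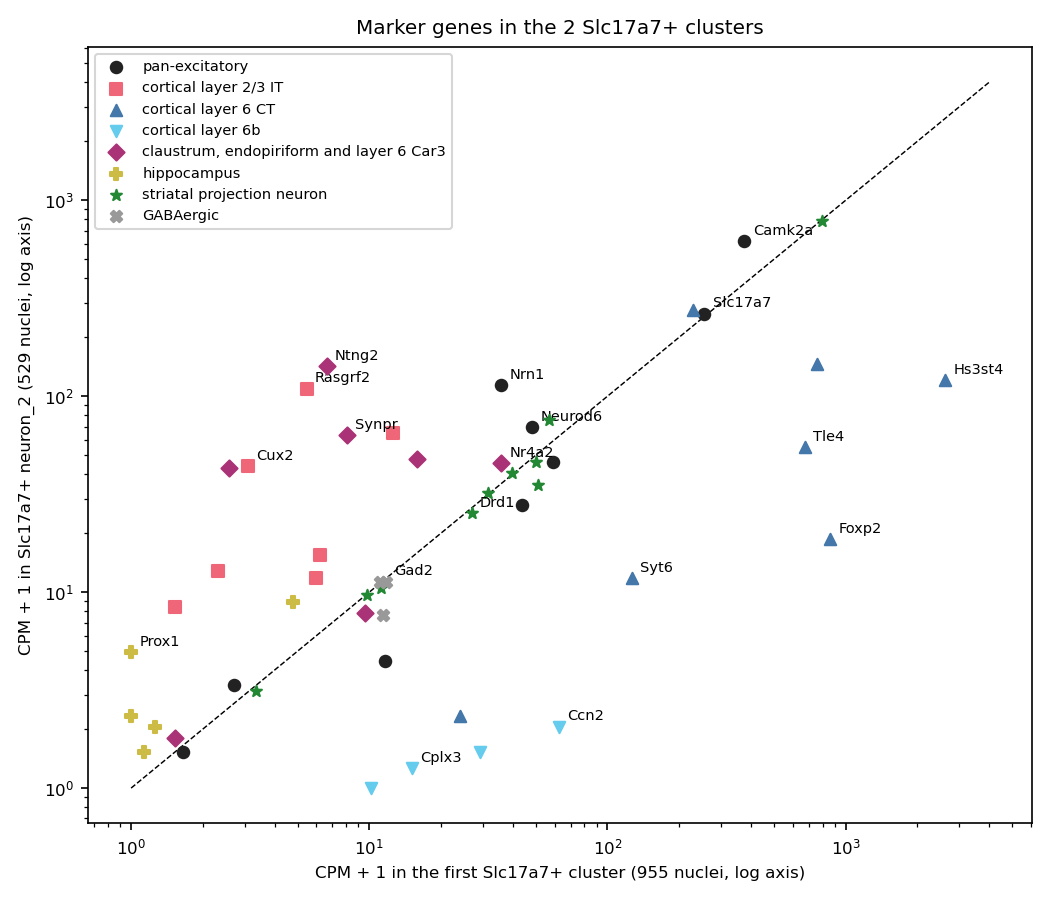
Levels of marker genes (CPM + 1, log axes) in the first Slc17a7+ cluster (955 nuclei, x axis) and in Slc17a7+ neuron_2 (529 nuclei, y axis). Points are genes, colours and shapes are marker lists, and the dashed line is equality. Slc17a7 lies on the line (254 and 263 CPM), Foxp2, Hs3st4 and Tle4 lie far below it, and Ntng2, Rasgrf2 and Cux2 far above it.

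Layer 6b genes, which mark the deepest cortical layer, summed to 1.85 CPM here, the lowest of the 18 clusters, and to 113 CPM in the first Slc17a7+ cluster. Ccn2, a matrix-associated growth factor of that layer, was at 1.06 CPM here and 61.4 CPM there, and Nxph4 was at 0 here. Of the layer 5 extratelencephalic list, Fezf2, the factor that specifies subcerebral projection neurons, was at 6.34 and 22.6 CPM and was lower, while Bcl11b, which acts after it, was at 113 and 184 CPM and did not reach 2-fold in every batch. Vwc2l of the near-projecting list of layers 5 and 6 was at 16.9 and 63.1 CPM and was lower.

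Of the IT lists, that of layer 2/3 had the most higher genes. Of its 7 genes 3 were higher, against 2.44% of all genes at this limit, and the list summed to 260 CPM here and 30.1 CPM in the first Slc17a7+ cluster. The latter was the lowest of the 18 clusters. The median of the 17 others was 165 CPM, and the striatal Drd1+ neuron_2 cluster was the highest at 383 CPM. Cux2, a homeobox factor of upper layers, was at 13.6, 62.2, 31.9 and 37.7 CPM here and at 0.882 to 2.85 CPM there. Rasgrf2, an exchange factor for Ras, was at 83.1, 145, 114 and 73.7 CPM here and at 2.85 to 7.94 CPM there, and Matn2, a matrix protein, was at 64.2 and 11.5 CPM. No batch overlapped in these genes. Of the 5 layer 5 IT genes 1 was higher, Il1rapl2, an adhesion receptor, at 372 and 70.0 CPM, while the median log2 ratio of the list was -0.33. Etv1, a transcription factor of that list, was at 8.98 and 22.8 CPM. None of the 5 layer 4 IT genes was higher in every batch, and Rorb, a nuclear receptor among them, was at 52.6 and 28.7 CPM.

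Claustrum, endopiriform and deep layer 6 IT cells share a further list. Of its 7 measured genes 2 were higher (2.44% of all genes), Ntng2 and Oprk1, which encodes the kappa opioid receptor. Oprk1 was at 20.4, 40.0, 17.7 and 63.7 CPM here and at 0.882 to 2.85 CPM in the first Slc17a7+ cluster, and Drd1+ neurons had 44.4 CPM. Nr4a2, a nuclear receptor of the claustrum, was at 44.4 CPM here and 34.8 CPM there, and its batches overlapped (10.6 to 58.4 and 28.8 to 61.7 CPM). Gnb4, a G protein subunit, was at 46.8 and 14.8 CPM and Synpr, a synaptic vesicle protein, at 62.4 and 7.07 CPM, neither 2-fold apart in every batch.

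The genes that differed most, by their smallest ratio over the batches, were named by rule, 12 in each direction. Among those higher, C1ql3 was at 1.57 CPM in the first Slc17a7+ cluster and Pparg at 1.18 CPM. Tafa1, which encodes a secreted neurokine, was at 224, 394, 461 and 194 CPM here and at 8.82, 3.51, 0 and 1.99 CPM there. Ptprk, a receptor tyrosine phosphatase, was at 662, 590, 639 and 567 CPM here and at 49.4, 30.3, 42.8 and 38.1 CPM there. For Ptprk this is 614 ± 43.7 and 40.1 ± 8.04 CPM (SD, n = 4 batches), a gap far wider than either spread. Syt17, Slc26a4, Slc30a3, Ntng2, Unc5d, a netrin receptor, Pdzrn3, an E3 ligase of synapses, Clmp, an adhesion molecule, and Rtn4rl1, a Nogo receptor homolog, were the other 8. In the first Slc17a7+ cluster, 9 of the 12 were at 0 in batch 3, the shallowest, so no fold is given for them there. Of these 9, Unc5d stood apart, at 47.6, 37.6 and 44.4 CPM in batches 1, 2 and 4 of that cluster. The others were at 8.82 CPM or less in those batches. Why Unc5d was at 0 in batch 3 was not tested.

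Among the 12 that were lower were Foxp2, Ccn2, Hs3st4, Syt6 and Tle4. Cdh18, a cadherin, was at 495, 639, 539 and 669 CPM here and at 3909, 3560, 3422 and 4027 CPM in the first Slc17a7+ cluster. Zfpm2, a cofactor of GATA factors, was at 47.7, 93.9, 330 and 79.6 CPM here and at 1396, 1557, 1593 and 1438 CPM there. Its batch 3 stood above the other batches of the cluster but far below every batch of the first Slc17a7+ cluster. Rell1, Trabd2b, an inhibitor of Wnt proteins, Glra2, a glycine receptor subunit, Rnf152, a ubiquitin ligase, and Svil, an actin-binding protein, were the remaining members.

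**Figure D2:**
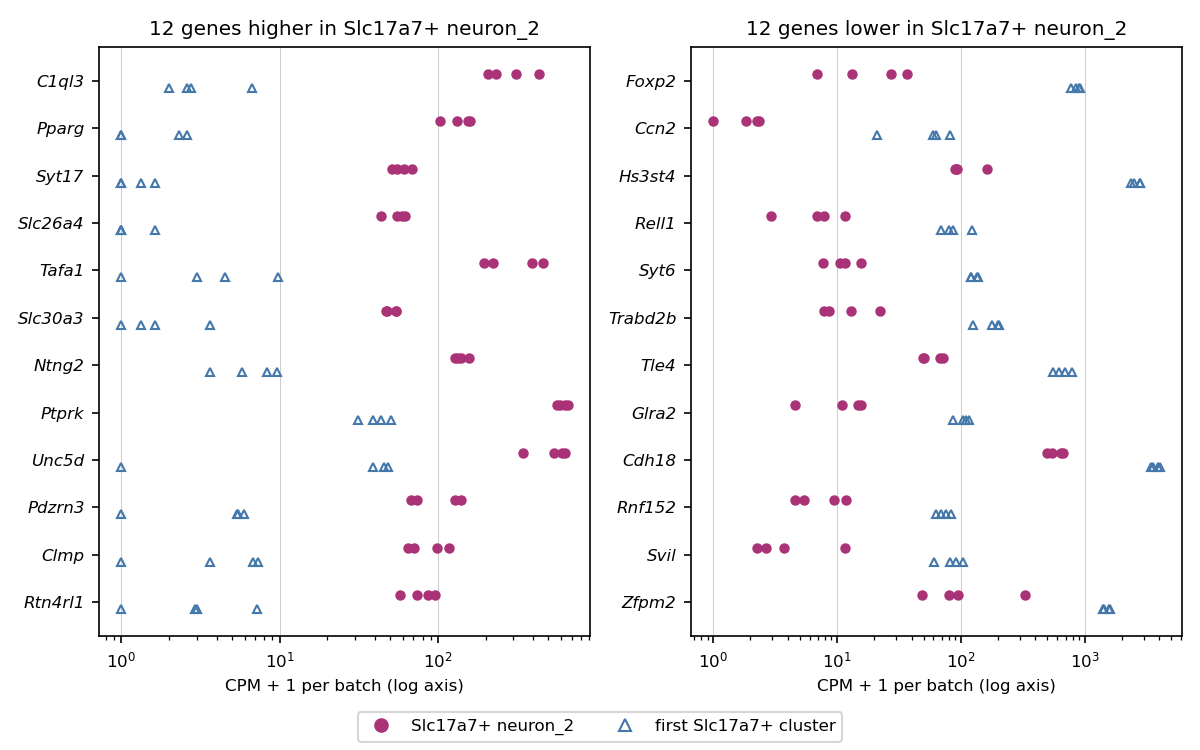
CPM + 1 (log axis) of the 12 genes higher and the 12 lower in Slc17a7+ neuron_2, 1 point per batch. Filled circles are Slc17a7+ neuron_2 and open triangles the first Slc17a7+ cluster. The 4 batches of the clusters do not overlap in any of the 24 genes. The genes were chosen for a large ratio within every batch, so this is no test.

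Receptor and channel genes were read from lists of whole families, beside shares over all genes of 2.44% higher and 1.09% lower. Of the 16 AMPA, kainate and NMDA receptor subunits, Gria4 and Grin3a were higher than in the first Slc17a7+ cluster and Grik1 was lower, and the median log2 ratio of the list was 0.06. Gria4, an AMPA subunit, was at 1150.3, 1237, 1011 and 1529.6 CPM here and at 403, 524, 477 and 596 CPM there. None of the 7 metabotropic glutamate receptors reached 2-fold in all batches (median log2 ratio 0.65): Grm5 was at 1957 and 1247 CPM. None of the 5 dopamine or 12 serotonin receptor genes did so either. Htr1f, a serotonin receptor of deep-layer neurons, was at 234 and 421 CPM, and Htr2a, the receptor bound by psychedelic drugs, at 67.9 and 29.2 CPM. Cnr1, the cannabinoid receptor, was higher, at 70.3 and 24.0 CPM, but below the 288 CPM of Drd1+ neurons. Of 12 sodium and calcium channel genes, Cacna1g, a low-threshold calcium channel, was higher, at 65.4, 76.2, 53.2 and 77.9 CPM here and 4.41, 10.5, 8.56 and 10.3 CPM there. Of 13 neuropeptide genes, Cck was the 1 that was higher. Immediate early genes, which report recent activity or handling, had none of 9 past 2-fold, with Arc at 34.3 and 47.0 CPM.

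Of 20 axon guidance and adhesion genes, 7 were higher and Cdh18 was lower, with a median log2 ratio of 0.75; over all genes, 2.44% were higher. Of the 5 opioid and cannabinoid receptor genes 2 were higher. The 7 were the netrin receptors Unc5c (554 and 139 CPM) and Unc5d (566 and 40.1 CPM), the ephrin receptor Epha6 (507 and 119 CPM), both netrin-G genes, the cadherin Cdh8 (235 and 71.5 CPM) and Cntnap5a (293 and 81.8 CPM), a contactin-associated protein. Ntng1 was at 188, 152, 298 and 177 CPM here and at 12.3, 14.0, 2.85 and 4.97 CPM in the first Slc17a7+ cluster. Epha6 ranged widely between the batches here, from 263 to 866 CPM, and was at 1057 CPM in Drd2+ neurons.

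The nuclei were then clustered among themselves (Leiden clustering of log-normalized counts), which gave 5 sub-clusters. The sub-clusters were made from the same genes, so their levels and leading genes are descriptions. The sub-cluster with the most nuclei, number 1, held 240 nuclei of 23 mice and had the highest Slc17a7, at 298 CPM. Its leading genes included Gm49678 and Efna5, an ephrin ligand, each less than 3-fold above the next sub-cluster. Sub-cluster 2 held 148 nuclei of 24 mice and was led by Nnat, the imprinted gene of neuronatin, at 336 CPM, Npsr1, a neuropeptide S receptor, and Adamts18, a secreted protease. It had the highest Neurod6 (95.4 CPM), Il1rapl2 (618 CPM) and Sulf1 (511 CPM).

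Sub-cluster 3, 93 nuclei of 21 mice, held 442 of the 984 UMIs of the 7 layer 2/3 genes (44.9%). Cux2 was at 136 CPM there, at 5.19, 2.81 and 11.8 CPM in sub-clusters 1, 2 and 4, and at 292 CPM in sub-cluster 5. Rasgrf2 was at 257 CPM there, against 46.2, 93.6, 283 and 111 CPM in sub-clusters 1, 2, 4 and 5. Otof, Wfs1 and Rorb were at their highest there among the 5 (38.5, 27.5 and 132 CPM). Its leading genes were the glypicans Gpc6 (428 CPM) and Gpc5 (158 CPM), proteoglycans of the cell surface, with Cntnap5c and Pdzrn3, and they included Tshz2 of the near-projecting list but no gene of the layer 2/3 list, so it is left unnamed.

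Sub-cluster 5, 23 nuclei of 10 mice, had the highest level among the 5 of each of the 7 measured genes of the claustrum and endopiriform list. Nr4a2 was at 281 CPM with a UMI in 17 nuclei, Ntng2 at 672 CPM in 22, Gnb4 at 351 CPM in 18, Oprk1 at 275 CPM in 17 and Synpr at 719 CPM in 20. Car3 and Lxn had only 3 and 2 UMIs, at 17.5 and 11.7 CPM. Synpr was also at 685 CPM in sub-cluster 4, in 19 of its nuclei. In sub-clusters 1 to 3, Synpr was at 7.49 to 35.7 CPM and Gnb4 at 23.7 to 52.4 CPM. The sub-cluster was led by B130024G19Rik, Tmem163, a zinc transporter, Col11a1, a collagen, and Cntnap3. None of its 10 leading genes was on the claustrum list, so it is left unnamed as well. Cux2 (292 CPM) and Hs3st4 (591 CPM), which belong to other lists, were also at their highest in it.

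Sub-cluster 4 rests mainly on 1 animal: 21 of its 25 nuclei came from the NZO/HlLtJ mouse of batch 3, which gave 27 nuclei in all, and the other 4 from 4 mice. It was led by Dock10, a guanine nucleotide exchange factor (791 CPM), Prox1, a homeobox factor (165 CPM from 14 UMIs in 6 nuclei), Glis3, a zinc finger factor (697 CPM), and Frmd4b (756 CPM). Adarb2, which is on the interneuron list, was at 2162 CPM with a UMI in 24 of the 25 nuclei, while the other 7 genes of that list had 0 to 3 UMIs each. Slc17a7 was at 260 CPM, with a UMI in 10 nuclei, and Gad1 had a UMI in 3 and Gad2 in 2. Of the excitatory list, Neurod6 had no UMI, Camk2a was at 650 CPM in 21 nuclei, and Neurod2 (118 CPM in 8 nuclei) and Nrn1 (154 CPM in 9) were at their highest of the 5 sub-clusters. Of the 5 hippocampal genes listed, Prox1 and C1ql2 were highest in this sub-cluster, at 165 and 59.1 CPM, the latter from 5 UMIs. Dsp and Spink8 had 2 UMIs each, below the limit of 3 counts, and Fibcd1 had none. The nuclei had a median of 3376 UMIs, against 3232 over all annotated nuclei of batch 3, from which most of them came. The sub-cluster is called by its leading genes here. With its nuclei left out, C1ql3 was at 253 CPM in the cluster and Slc17a7 at 263 CPM.

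**Figure D3:**
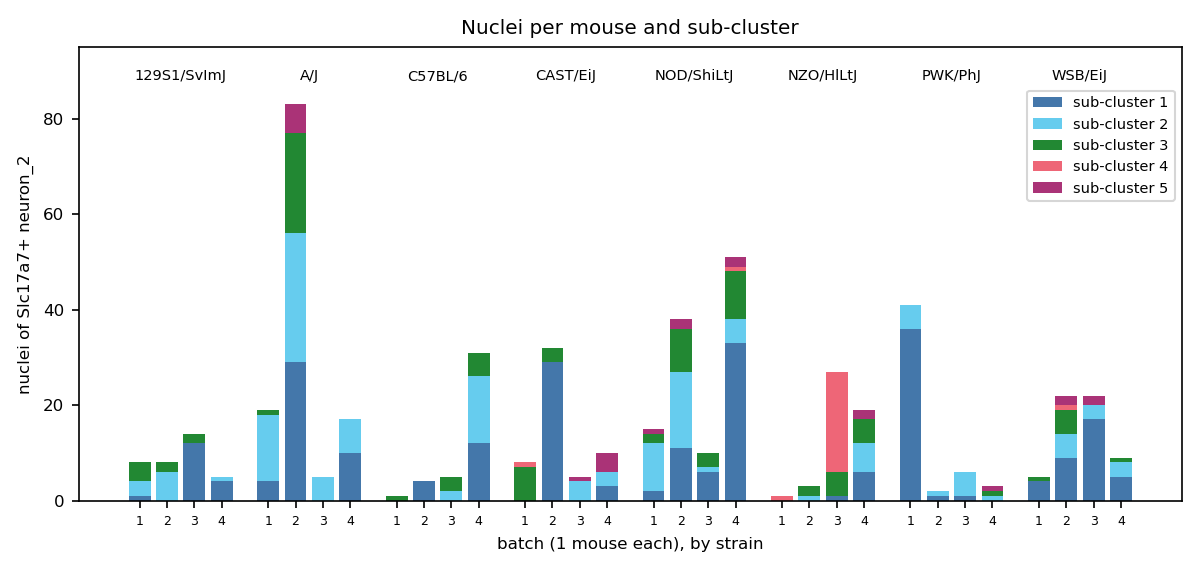
Nuclei of Slc17a7+ neuron_2 in each of the 32 mice (bars, from 0), ordered by strain and then batch, coloured by sub-cluster. The A/J mouse of batch 2 gave 83 nuclei and 1 mouse each of C57BL/6 and NZO/HlLtJ gave 1. Sub-cluster 4 is seen mainly in the NZO/HlLtJ mouse of batch 3.

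The number of nuclei varied widely between mice of the same strain. Mice gave 1 to 83 nuclei (median 9.5), and the 5 mice with the most gave 245 of the 529 (46.3%). The A/J mice of batches 1 to 4 gave 19, 83, 5 and 17 nuclei, the C57BL/6 mice 1, 4, 5 and 31, and the PWK/PhJ mice 41, 2, 6 and 3. The mouse with the most nuclei was PWK/PhJ in batch 1, A/J in batch 2, NZO/HlLtJ in batch 3 and NOD/ShiLtJ in batch 4. As a share of the nuclei of a mouse, the cluster ranged from 0.0477% to 2.70%, with a median of 0.658%. NOD/ShiLtJ had the highest mean, 1.65% ± 0.941 (SD, n = 4 mice), and 129S1/SvImJ the lowest, 0.544% ± 0.262, with A/J at 1.03% ± 0.658 and the others between 0.686% and 0.896%. The ranges of NOD/ShiLtJ (0.786 to 2.70%) and 129S1/SvImJ (0.315 to 0.899%) overlapped. A difference between strains was not detected (F = 1.12, adjusted p = 0.598 over 18 clusters, permutation of strain labels within batch, two-sided). In the same test 1 of the 18 clusters (5.56%) was called, and 4 had an unadjusted p under 0.05.

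The share of the cluster moved together with that of the first Slc17a7+ cluster over the 32 mice. Pearson's r was 0.809 (p = 1.0e-05, the smallest that 100000 permutations can give) and Spearman's rho was 0.705 (permutation p = 4.0e-05), 1 relation tested. Without the 2 mice farthest from the median of the first Slc17a7+ cluster's share, r was 0.749 and rho 0.653. Within batches 1 to 4, with 8 mice each, r was 0.859, 0.749, 0.679 and 0.944, with exact permutation p-values of 0.0119, 0.0391, 0.0552 and 0.000347. Spearman's rho was 0.667, 0.571, 0.476 and 0.929, with exact permutation p-values of 0.0831, 0.151, 0.243 and 0.00223, so by rank only batch 4 passed 0.05. The CAST/EiJ mouse of batch 2 had 1.80% and 5.00% of its nuclei in the 2 clusters and the NOD/ShiLtJ mouse of batch 4 had 2.70% and 4.98%, while the NZO/HlLtJ mouse of batch 1 had 0.0579% and 0. Mice with few nuclei of the one thus tended to have few of the other, and both shares have the same denominator. How the tissue was cut from each brain is not given in the sources used here, and its part in these shares was not tested.

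**Figure D4:**
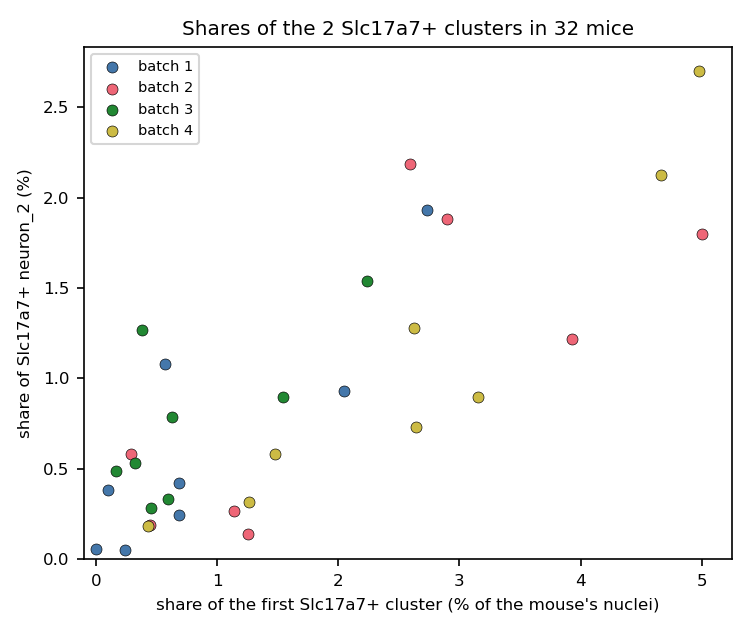
Share of the nuclei of a mouse in the first Slc17a7+ cluster (x axis, %) and in Slc17a7+ neuron_2 (y axis, %), 1 point per mouse, coloured by batch. The shares rise together over 32 mice (r = 0.809), and each batch spans low and high values.

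The depth of the nuclei and their presence in the index of accessible regions were compared between strains over the 26 mice with at least 5 nuclei. Strain means of the median UMIs per nucleus lay between 5454 (PWK/PhJ) and 7006 (129S1/SvImJ), with SDs of 1924 to 4088, and no difference was detected (F = 1.50, adjusted p = 0.338, permutation within batch). Of the nuclei, 96.0% were listed in the index, and the strain mean was lowest in CAST/EiJ, 82.0% ± 14.7 (n = 4 mice). A difference over the 8 strains was not detected (adjusted p = 0.102, permutation within batch). The CAST/EiJ mice of batches 1 to 4 had 87.5, 90.6, 60.0 and 90.0%, while mice of the other strains had 78.6 to 100%. Leaving out batch 3 brought both adjusted p-values to 0.0332.

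Strain differences in expression were tested over the same 26 mice, in which 129S1/SvImJ, A/J, CAST/EiJ, NOD/ShiLtJ and WSB/EiJ had 4 mice each and C57BL/6, NZO/HlLtJ and PWK/PhJ had 2 each. The summed counts of a mouse ranged from 9437 to 697985 (median 78345). Of 3088 genes that passed the filter, 28 (0.907%) differed between strains at an adjusted p under 0.05 (edgeR quasi-likelihood test with batch as a block, p-values adjusted by the Benjamini-Hochberg method). Without adjustment, 231 genes had a p under 0.05. The number called moved with the batch left out: it was 14, 42, 20 and 23 without batches 1, 2, 3 and 4. Strains left with under 2 mice dropped out of these tests, so only that without batch 2 kept all 8 strains. PWK/PhJ was left out without batch 1, and C57BL/6 and NZO/HlLtJ without batch 4. Without batch 3, C57BL/6, NZO/HlLtJ and PWK/PhJ were all left out. On simulated counts of this size the test found 8.5% of genes changed 2-fold in 1 strain, 63.5% of those changed 4-fold and 85.5% of those changed 8-fold, so small changes could not be seen. The 10 genes with the largest F statistic are described below in CPM scaled by TMM over the tested genes. Each adjusted p printed with them is of the test over all 8 strains, not of 1 strain against the others. Levels in other clusters are unscaled and over all genes, so they are set beside unscaled levels here. Named counts include mice at 0, for which no fold is given.

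WSB/EiJ stood apart in Cwc22 (chromosome 2, 77881159-77946356), a splicing factor of the spliceosome. Its 4 mice had 1797, 2029, 1528 and 2188 CPM, a mean of 1886 ± 288 CPM, and the means of the other strains were 32.7 to 76.6 CPM. Every WSB/EiJ mouse was above every other mouse, whose highest was 122 CPM (adjusted p = 1.109e-23, edgeR). A UMI was found in all 58 WSB/EiJ nuclei, and in 9.62% (PWK/PhJ) to 34.1% (C57BL/6) of nuclei of the other strains. Without that scaling, the strain had 1493 CPM over all 58 of its nuclei here. Its mice averaged 1409 CPM in the first Slc17a7+ cluster and 1590.5 CPM in Drd1+ neurons, also unscaled.

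CAST/EiJ was set apart in 3 of the 10 genes. Nkain2, which encodes a membrane protein that interacts with the sodium pump, was at 788, 765, 613 and 584 CPM in its mice (688 ± 104 CPM). In the other strains it was at 2648 to 4561 CPM over all mice, with no overlap (adjusted p = 1.629e-10, edgeR). Clvs2, a lipid-binding protein of endosomes in neurons, went the other way, at 567, 562, 715 and 309 CPM (538 ± 168 CPM) against 0 to 168 CPM (adjusted p = 9.196e-07, edgeR). Both lie on chromosome 10, Nkain2 at 31689310-32897174 and Clvs2 at 33512286-33624684. The gene model B530045E10Rik was at 370, 249, 511 and 498 CPM in CAST/EiJ (407 ± 123 CPM) and at 0 to 58.6 CPM in the 22 other mice (adjusted p = 5.298e-11, edgeR), but DESeq2 gave it an adjusted p of 0.558. Of 55 CAST/EiJ nuclei 36 had a UMI of it, and none of 52 PWK/PhJ nuclei, which allows up to 8.37 CPM.

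AC149090.1, a gene model known by its clone, split the strains into high and low. CAST/EiJ (2864 ± 1014 CPM), PWK/PhJ (1791 and 2518 CPM), 129S1/SvImJ (1480 ± 738 CPM) and C57BL/6 (1064 and 1123 CPM) were high. NZO/HlLtJ and WSB/EiJ were at 381 and 380 CPM, and NOD/ShiLtJ and A/J were lowest at 136 and 94.9 CPM. The lowest of the 12 mice of the 4 high strains had 765 CPM and the highest of the 14 others had 632 CPM (adjusted p = 6.556e-20, edgeR).

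Catspere1 and Catspere2, subunits of the sperm calcium channel CatSper, lie near each other on chromosome 1 (177808419-177962253 and 177983155-178172707). Catspere1 was at 176 and 157 CPM in the PWK/PhJ mice, at 109 ± 49.7 CPM in A/J, at 76.2 and 82.6 CPM in NZO/HlLtJ and at 51.3 ± 22.2 CPM in WSB/EiJ. It was at 0 in every mouse of 129S1/SvImJ and C57BL/6, and in CAST/EiJ and NOD/ShiLtJ 1 mouse each had 1 count (adjusted p = 6.945e-06, edgeR). Catspere2 had the same 4 strains highest: PWK/PhJ 542 CPM (664 and 420 CPM), A/J 417 ± 44.6 CPM, WSB/EiJ 338 ± 99.7 CPM and NZO/HlLtJ 240 CPM. The others had means of 86.4 to 116 CPM, and the single mice overlapped (190 CPM in 1 NZO/HlLtJ mouse and 204 CPM in 1 CAST/EiJ mouse, adjusted p = 3.314e-05, edgeR). How the counting divided reads between the 2 related genes is not given in the sources used here.

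Tmem181a, a membrane protein gene on chromosome 17 (6256726-6308314) with near-identical copies, was highest in 129S1/SvImJ, at 282, 357, 626 and 313 CPM. WSB/EiJ was lowest, at 45.7 ± 40.1 CPM, followed by CAST/EiJ and PWK/PhJ at 60.2 and 60.5 CPM (adjusted p = 1.089e-05, edgeR). The level of 1 NZO/HlLtJ mouse, 305 CPM, fell within the range of 129S1/SvImJ. 4930447C04Rik on chromosome 12 (72880193-72917957), a gene known by its clone name, was at 174 ± 38.3 CPM in 129S1/SvImJ and at 115 and 142 CPM in C57BL/6. It was at 0 in both PWK/PhJ mice and at most at 12.6 CPM in CAST/EiJ and NOD/ShiLtJ (adjusted p = 2.064e-05, edgeR). The highest mice of A/J (187 CPM) and WSB/EiJ (128 CPM) fell within the range of 129S1/SvImJ, and the highest of NZO/HlLtJ was at 107 CPM. With at least 10 nuclei per mouse, Tmem181a and 4930447C04Rik were no longer called (adjusted p = 0.1226 and 0.08524, edgeR), over 13 mice of 5 strains. These do not include 129S1/SvImJ, the strain highest in both genes, so this setting cannot decide on its difference. Unscaled and over all nuclei of 129S1/SvImJ, 4930447C04Rik was at 129 CPM here and 176 CPM in the first Slc17a7+ cluster. In Drd1+ neurons it was lower, at 27.6 CPM, a difference that was not tested.

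Commd7, a COMM-domain gene on chromosome 2 (153616930-153632795), was highest in PWK/PhJ, at 197 and 577 CPM, and no other mouse exceeded 53.1 CPM (adjusted p = 0.0003879, edgeR). The 2 PWK/PhJ mice with under 5 nuclei, which were not tested, had 1 and 2 UMIs of it, below the limit of 3 counts used here, and 20 of the 52 PWK/PhJ nuclei had a UMI. The value of batch 3 rests on 6 nuclei, 1 of which held 10 of its 11 UMIs. Unscaled and over all nuclei of PWK/PhJ, the gene was at 167 CPM here. It was at 19.3 CPM in the first Slc17a7+ cluster and at 12.0 CPM in Drd1+ neurons. The difference between clusters was not tested.

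**Figure D5:**
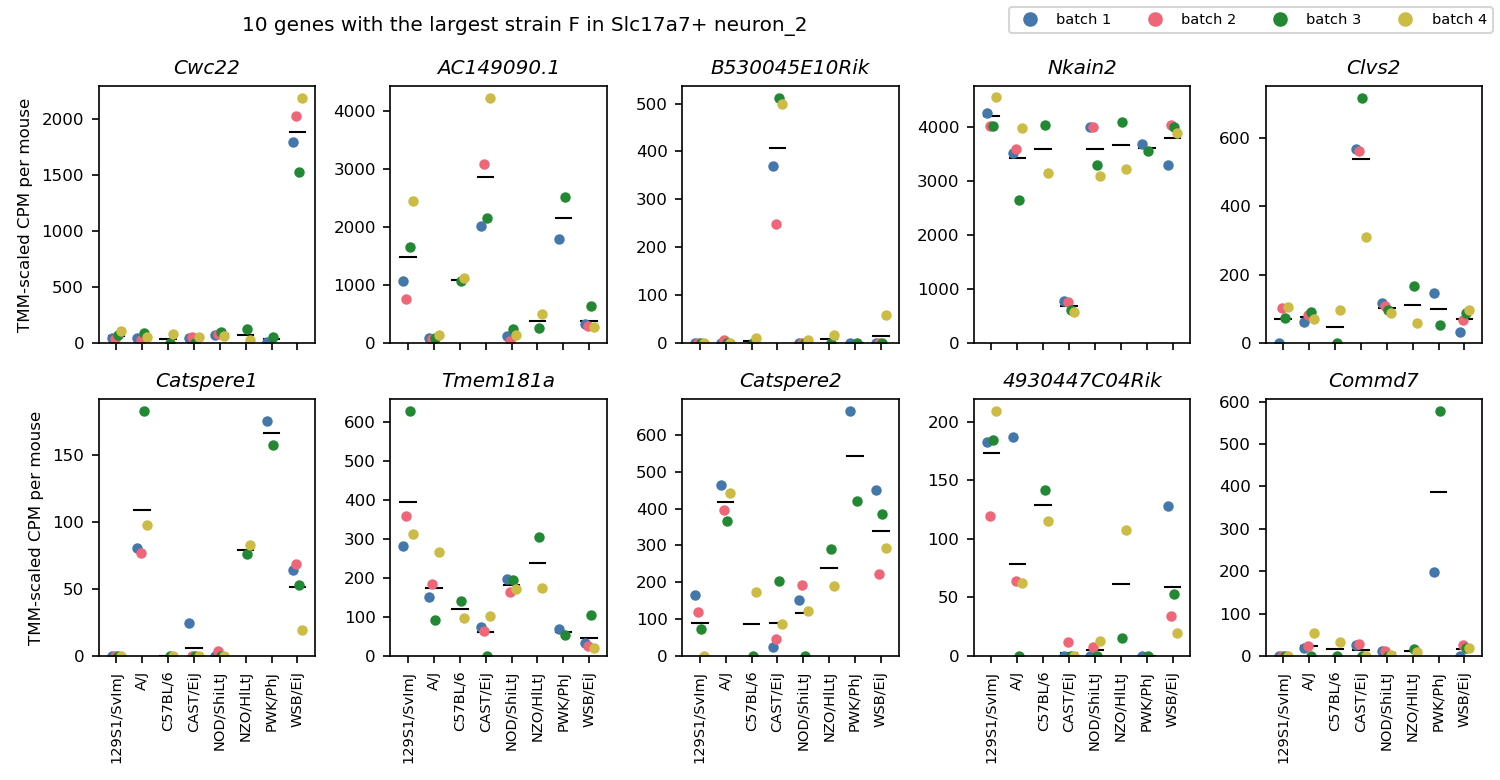
TMM-scaled CPM per mouse of the 10 genes with the largest strain F statistic, over 26 mice and 8 strains (x axis). Points are mice coloured by batch, lines are strain means, and each y axis starts at 0. WSB/EiJ lies apart in Cwc22, CAST/EiJ in Nkain2, Clvs2 and B530045E10Rik, and PWK/PhJ in Commd7.

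The other 18 called genes had smaller F statistics, and 4 of them were among the 10 leading genes of a sub-cluster. The share of leading genes among all tested genes was not counted, so these 4 are named as a description only. Dock10 and Fbxl7, of sub-cluster 4, were highest in NZO/HlLtJ (466 and 138 CPM). Gpc5, of sub-cluster 3, was highest in 129S1/SvImJ (214 CPM), and Gm48530, of sub-cluster 1, in PWK/PhJ (160 CPM). Pooled over the mice of a strain, sub-cluster 1 held 73.1% of the nuclei in PWK/PhJ, 34.7% in A/J and 14.0% in NZO/HlLtJ. Single mice weigh heavily in these shares, which were not tested. Of the 38 PWK/PhJ nuclei of sub-cluster 1, 36 came from the mouse of batch 1. In NZO/HlLtJ the mouse of batch 3 gave 27 of the 50 nuclei, 21 of them in sub-cluster 4. Except for sub-cluster 4, the part of this mix in the strain differences was not tested. Of the 28 genes, 6 each were highest in NZO/HlLtJ and PWK/PhJ, 5 in CAST/EiJ, 4 in 129S1/SvImJ and 1 to 3 in each of the other strains. The same split over all tested genes was not counted, so these numbers do not single out a strain. The means of C57BL/6, NZO/HlLtJ and PWK/PhJ rest on 2 mice each. With sub-cluster 4 left out, 35 genes were called, Dock10, Fbxl7 and Gm48530 did not pass the filter, and Sphkap had an adjusted p of 0.1043, while the 24 others of the 28 were called again.

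Of the 20 genes with the highest ratio to the other clusters, 15 were tested for strain and 1 was called (0.907% over all tested genes), the gene model Gm48530 (adjusted p = 0.04053, edgeR). It was highest in PWK/PhJ (160 CPM) and lowest in CAST/EiJ (5.75 CPM). Of the 31 lists of cell types, receptors, channels, peptides, early genes and adhesion genes, 21 had a member that was tested, and no tested member was called. The other 10, such as the GABAergic, hippocampal and layer 6b lists, were not tested. The adhesion list had all 20 members tested, 5 of them with an unadjusted p under 0.05 (7.48% over all tested genes), and 4 other lists had 1 such member each. The excitatory list had 6 of 10 members tested, the glutamate receptor subunits 12 of 16 and the 2/3 IT list 1 of 7. In a list of 10 genes that an earlier analysis had named for strain differences in Drd1+ neurons of these same mice, 6 were tested here and 5 were called: Cwc22, Catspere1, Catspere2, B530045E10Rik and Tmem181a. The nuclei differ but the mice are the same, so the count is not independent evidence of their direction. Ulk4, a kinase gene of that list, had an adjusted p of 0.7308 (edgeR), and Dnah6, Gm17167, Psat1 and Acp1 did not pass the filter.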

How the data were processed

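The deposited matrices of the authors hold raw counts, whole numbers of UMIs per gene and barcode, of 4 RNA libraries, 1 per batch. Per the submitters' processing notes, bcl2fastq 2.20.0.422, Cell Ranger ARC 2.0.0 and the builds mm10 and GRCm38 were used. Strain calls, quality filters, doublet calls and cluster names are those of the authors' deposited table, in which 55672 nuclei are annotated, and no further filter on nuclei or doublet caller was applied. The deposited index of accessible regions lists positions and barcodes (category data, no signal).

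Levels of a cluster are summed counts per 1000000 (CPM) without scaling, over all nuclei or per batch, and 1 CPM was added in ratios. For shares of nuclei with a UMI, each nucleus was thinned to 2000 UMIs. Sub-clusters came from scanpy 1.11.5 (2000 variable genes, 10 principal components, 15 neighbours, Leiden resolution 0.3). The strain term used mice with at least 5 nuclei, in strains with at least 2 such mice. Counts were summed per mouse and genes were filtered with filterByExpr by strain. They were then scaled by TMM and fitted with strain and batch in edgeR 4.0.16 (R 4.3.3, quasi-likelihood F test, robust, Benjamini-Hochberg over all tested genes). Shares of nuclei were taken as log2 with 0.5 nuclei added, and tests on mice permuted strain labels within batch 100000 times. The tests were checked on simulated data: of the simulated calls, 10.5% were false at 2-fold, 6.62% at 4-fold and 4.47% at 8-fold changes. Mice of a batch were pooled before loading, per the labels, so batch is a block by design. Deviations from strain means had a median correlation of 0.0142 between mice of the same batch and -0.00549 between batches.

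Genes named by rule are the 20 with the largest ratio to the highest other cluster (20 CPM or more), the 12 in each direction whose ratio to the first Slc17a7+ cluster is largest in the batch where it is smallest (50 CPM or more), the 10 with the largest strain F statistic (10 CPM or more), and members of the lists, some of which are not reported here. The cluster, the lists and the rules were chosen with earlier results of these data known. Alternatives were another normalization and test (DESeq2 1.42.0), other limits on counts and nuclei, another clustering, no batch block and leaving out each batch. Promoter sequences and gene positions are from RefSeq tables of GRCm38.p6. Intervals and limits for counts of 0 (3 counts) cover counting error only.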

Additional observations from a re-analysis of the deposited data

Results flagged for a closer look

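In 112 groups of 4 values, 20 (17.9%) had 1 value far from the other 3. In 9 of the 20 the other 3 values were all 0 or all 100%, so that any single departure stands out and the usual chance rate of about 1 in 20 does not apply; 11 had 3 other values that varied. No explanation was tested. Batch 3, the shallowest, held 10 of the 20. Of nuclei listed in the index of accessible regions, 129S1/SvImJ in batch 3 had 78.6% (100% in its other batches), A/J in batch 2 had 96.4% (100%), CAST/EiJ in batch 3 had 60.0% (87.5 to 90.6%) and WSB/EiJ in batch 2 had 95.5% (100%). The A/J mouse of batch 3 had a median of 1969 UMIs per nucleus (7633 to 8340 in the other batches). The C57BL/6 mouse of batch 4 had 2.13% of its nuclei in the cluster (0.0477 to 0.331%).

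In the strain test, Cwc22 was at 0 CPM in the CAST/EiJ mouse of batch 3 (49.3 to 52.2 CPM in the other CAST/EiJ mice). That mouse had 5 nuclei and 9437 UMIs, and 5 counts of B530045E10Rik in it came to 511 CPM. Its 0 thus cannot be told from the levels of the other mice. AC149090.1 was at 632 CPM in WSB/EiJ of batch 3 (274 to 321 CPM) and Tmem181a at 105 CPM in WSB/EiJ of batch 3 (19.5 to 32.1 CPM). The gene model B530045E10Rik was at 5.50 CPM in A/J of batch 2, 6.31 CPM in NOD/ShiLtJ of batch 4 and 58.6 CPM in WSB/EiJ of batch 4, and at 0 in the other mice of those strains. Catspere1 was at 24.6 CPM in CAST/EiJ of batch 1 and 3.62 CPM in NOD/ShiLtJ of batch 2, and 4930447C04Rik at 11.6 CPM in CAST/EiJ of batch 2, with 0 in the other mice of those strains.

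Among levels of the whole cluster, batch 3 differed in Rspo2 (56.8 CPM against 155 to 169 CPM), Svil (10.6 against 1.27 to 2.73 CPM), Zfpm2 (330 against 47.7 to 93.9 CPM) and Prox1 (39.0 against 0 to 1.90 CPM). Sub-cluster 4, with 21 of its 25 nuclei in batch 3, held 14 UMIs of Prox1, and the other sub-clusters held 0 or 1 each. Batch 2 differed in Hs3st4 (162 against 88.6 to 92.2 CPM).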

How the results depend on the processing

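Of 69 recomputed main values, 61 were classed as the same, 6 as moved and 2 as stronger, and 0 as weaker or reversed. Counts and levels have no direction or side of a threshold, so those classed as the same need not equal the main value. The 28 genes called for strain became 49 with DESeq2, 177 with no filter on low counts (20272 genes tested), 18 with at least 3 nuclei per mouse, 14 without batch 1 (14 to 42 over the 4 batches left out), 35 without sub-cluster 4 and 28 without the A/J mouse of batch 2, which were both chosen after seeing the data. With no replicate block 29 genes were called, 23 of them shared, and the pairing by batch changed no other call. The genes higher than in the first Slc17a7+ cluster were 74 at 100 CPM or more (119 at 50 CPM), where fewer genes are compared. A Leiden resolution of 0.6 gave 8 sub-clusters in place of 5. Without batch 3, the adjusted p (permutation) for median UMIs and that for the index both became 0.0332 (0.0332 to 0.527 and 0.0332 to 0.144 over the batches left out). Leaving out batch 1, 3 or 4 also removed strains from these tests and from the strain test of genes, as given above. The cause was not tested. Of 184 recomputed values for single genes, which include levels without a call, 181 were classed as the same and 3 as weaker. The 3 are of B530045E10Rik, Tmem181a and 4930447C04Rik, which lost their call as given above. Catspere1 and Commd7 had a value in only 8 alternatives each, against 12 for the other genes with the largest F statistic. In the remaining settings their calls could not be compared. The limits are the few nuclei per mouse, 2 mice in each of 3 strains, and batch 3, whose depth was lowest.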

Other observations

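Sub-cluster 4 remained whole in other clusterings: its 25 nuclei stayed together with 20 principal components and at a Leiden resolution of 0.6, and 22 and 23 of the 23 nuclei of sub-cluster 5 did so at these settings. In CAST/EiJ, Clvs2 was at 394 CPM before scaling in Slc17a7+ neuron_2 and at 438 CPM in the first Slc17a7+ cluster, the highest of the 17 other clusters, whose median was 69.4 CPM; the difference was not tested. Tmem181a in 129S1/SvImJ was at 285 CPM here, also before scaling, and at 32.1 to 214 CPM in the 17 other clusters. B530045E10Rik in CAST/EiJ was at 250 CPM here before scaling, and its median over the 17 other clusters was 315 CPM. AC149090.1 in CAST/EiJ was at 2388 CPM here and at a median of 1909 CPM there. Catspere1 and Catspere2 in PWK/PhJ were at 131 and 524 CPM here and at medians of 125 and 456 CPM there. The high levels of these genes were thus also found outside the cluster.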
